A study of Mus musculus with 6 samples.

Results

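Innate pattern-recognition receptors, lectin receptors and Fc receptors are described here in mouse osteoblast cultures treated with verapamil and in control cultures. Members were chosen by gene symbol alone: Toll-like receptors (Tlr), C-type lectin domain genes (Clec), Fc receptor genes (Fcgr, Fcer), Siglecs, the Cd300 family, the paired immunoglobulin-like receptors (Lilr, Pilr, Pira, Pirb), the Trem family, the NLR sensors (Nlrc, Nlrp, Nlrx), and Tyrobp, Cd14, Myd88, Nod1 and Nod2. The rule took in 101 of the 17491 genes of the count table, of which 68 reached the filter on low counts and were tested. The question of the study was which genes osteoblasts express differently under verapamil, a drug that blocks L-type calcium channels of the cell membrane. The 3 verapamil libraries and the 3 control libraries were all made from total RNA of wild type cells at day 7 of osteogenic culture. Mesenchymal stem cells had been taken from tibial and femoral marrow, and both groups carried the same osteogenic medium with dexamethasone, 5 mM β-glycerophosphate and 50 µg/mL ascorbic acid. The labels give neither the dose of verapamil nor the length of exposure, nor the age or strain of the mice. Whether the replicates were separate cultures or separate animals is not stated either, and the p-values therefore reflect no more than the spread among these 6 libraries, which may be technical.

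Innate receptors recognise conserved microbial or damage-derived molecules and are carried mainly by macrophages and other myeloid cells. Many lectin, Trem, Cd300 and activating Fc receptors have no signalling tail of their own and pair with the adaptors Tyrobp (DAP12) or Fcer1g (the common γ chain), whose ITAM motifs recruit the kinase Syk, while inhibitory relatives carry ITIM motifs that recruit phosphatases. Toll-like receptors signal mostly through Myd88, and several NLR proteins assemble inflammasomes that activate caspase-1. In bone, Tyrobp and Trem2 are known for their part in the formation of osteoclasts from myeloid precursors.

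Library totals ran from 18.2 to 21.7 M counts with verapamil and from 20.1 to 21.7 M in control, so 3 counts equal 0.135 to 0.160 CPM, an upper limit for a gene with none, which covers counting error only. Levels are given as CPM, counts scaled to the TMM-normalised depth of each library, and changes as the log2 of verapamil over control with the SE (3 libraries per group), tested with edgeR's quasi-likelihood test and the Benjamini-Hochberg adjustment over 13366 genes at 0.05. The members together took 0.444% to 0.484% of all counts in the verapamil libraries and 0.294% to 0.351% in the control libraries. The labelled cell type was checked against its markers. All 11 osteoblast markers were detected and all 11 fell, with summed levels of 14886 to 17232 CPM in verapamil libraries, against 36591 to 46823 CPM in control libraries. Macrophage and monocyte markers were also present in every library. Their 25 genes summed to 23086 to 25893 CPM with verapamil and 13333 to 16232 CPM in control, and 19 rose, 2 fell and 4 did not pass. The 2 that fell were the chemokine receptors Cx3cr1 (-2.31, adjusted p = 9.04e-04) and Ccr2 (-1.85, adjusted p = 0.00988). In bulk RNA, a different number of cells of a type and a different amount of RNA per cell cannot be told apart. The lymphocyte markers, of which 7 of 12 were in the table, were close to 0, with sums of 0.135 to 0.316 CPM with verapamil and 0.107 to 0.188 CPM in control. The neutrophil markers summed to 21.2 to 24.3 CPM with verapamil and 11 to 11.7 CPM in control, with 11 of the 16 in the table. Of the 5 tested, 3 rose: Mmp8 (1.79), S100a8 (1.15) and Csf3r (0.59). Cxcr2 (-0.10) and Mmp9 (-0.08) did not pass. Mean levels with verapamil and in control were 11.5 and 3.30 CPM for Mmp8, and 7.85 and 5.23 CPM for Csf3r. Those of S100a8 were low, at 0.913 and 0.402 CPM, and its call was at the edge of the threshold (adjusted p = 0.0488). Dendritic cell markers summed to 179 to 205 CPM with verapamil and 145 to 228 CPM in control. Of the 7 tested, Irf8 rose (0.65), Xcr1 (-2.17) and H2-Ab1 (-2.00) fell, and 4 did not pass. Among those 4, Bst2 had a mean of 118 CPM with verapamil and 111 CPM in control. Osteoclast markers summed to 334 to 359 CPM with verapamil and 366 to 395 CPM in control. Mast cell and basophil markers summed to 7.55 to 10.7 CPM with verapamil and 8.65 to 14.6 CPM in control.

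Of the 68 tested members, 31 rose, 4 fell and 33 did not pass the test. Over all 13366 genes tested, 31.7% were called, 15.4% as higher and 16.3% as lower. Of the tested members, 45.6% were called higher, and their median log2 fold change was 0.30, against 0.01 over all genes tested. In 36 members all 3 verapamil libraries lay above all 3 control libraries, and in 6 all lay below. Over all genes tested, 49.6% did not overlap, 25.2% with verapamil higher and 24.4% with verapamil lower. Of the 35 calls, 26 held in each of the 6 fits that left out 1 library, 25 of them higher and 1 lower. The members' rises stood beside higher sums of macrophage markers and of neutrophil markers, the latter led by Mmp8 and Csf3r. The part of either in the members' rises was not tested. Scaling to library totals alone changed the members' counts to 36 higher and 1 lower, and the share of higher calls among all called genes to 63.7%, against 48.5% with TMM factors.

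**Figure D1:**
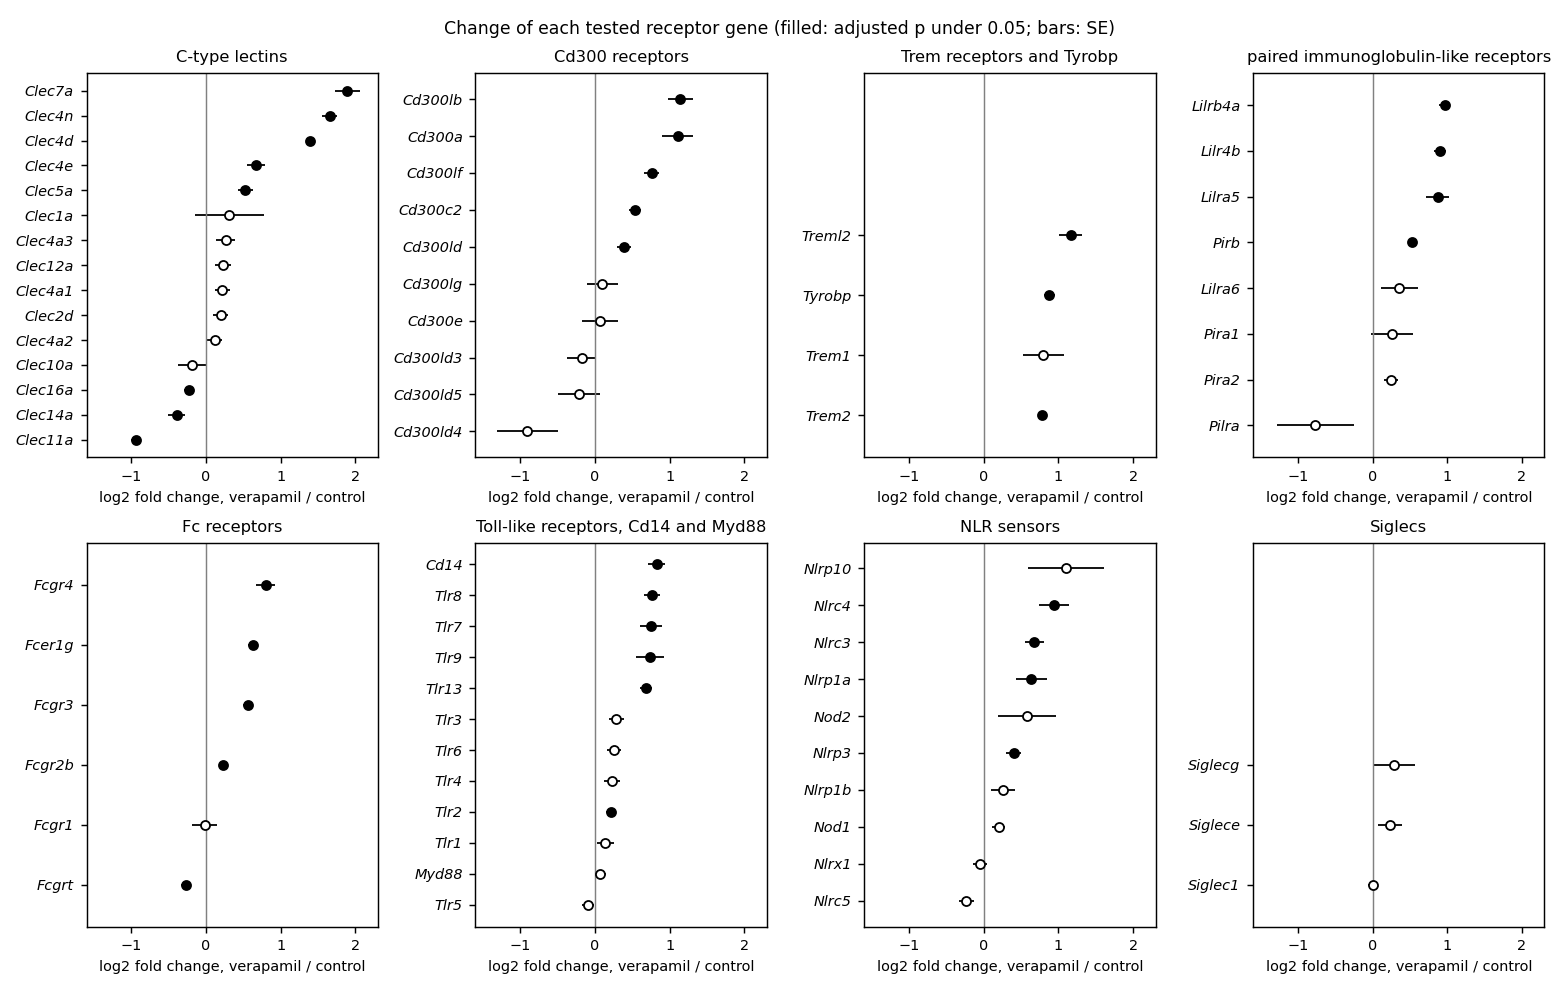
Log2 fold change of verapamil over control (x axis) with its SE for each of the 68 tested members, in 8 panels by family, filled where the adjusted p was under 0.05. Clec7a stands farthest to the right at 1.89, and the filled points to the left of 0 are Clec11a, Clec14a, Clec16a and Fcgrt.

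The C-type lectin receptors of myeloid cells held the largest rises. Clec7a (Dectin-1, the β-glucan receptor; GRCm38 chromosome 6, 129461591 to 129472785) had 17.9, 22.4 and 18.1 CPM in verapamil replicates 1, 2 and 3, against 5.87, 3.79 and 5.97 CPM in control replicates 1, 2 and 3. The lowest verapamil library was above the highest control library by a wide margin, and the log2 fold change was 1.89 ± 0.17 (SE), or 3.72-fold, with an adjusted p of 3.64e-04. Clec4n (Dectin-2, a receptor for fungal mannans) had 22.4, 24.4 and 20.4 CPM with verapamil, against 7.37, 7.32 and 6.66 CPM in control. Its groups lay apart as well, with a log2 fold change of 1.65 ± 0.10 (SE) and an adjusted p of 7.89e-05. Clec4d (MCL, which pairs with Mincle) had 215, 238 and 214 CPM in the verapamil libraries, against 84.5, 82.2 and 87.3 CPM in the control libraries. The 6 values fell into separate, tight groups, and the log2 fold change was 1.39 ± 0.06 (SE), with an adjusted p of 3.83e-05. Clec4e, which encodes Mincle, the receptor for mycobacterial cord factor, rose by 0.67 (adjusted p = 0.00481), and Clec5a, a Tyrobp-coupled receptor, by 0.52 (adjusted p = 0.00625). The ratio of Clec4d to Clec4e, its neighbour, was 13.1, 12.5 and 13.7 with verapamil and 7.37, 7.06 and 9.50 in control. It did not overlap, with an exact two-sided permutation p of 0.1, the smallest that 3 against 3 allows, and 0.138 after adjustment over the 11 pairs of members compared, which were chosen with results of these data known.

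Other lectin genes of the family did not pass the test. Clec12a had a log2 fold change of 0.23, Clec4a1 of 0.22, Clec4a2 of 0.12, Clec4a3 of 0.27, Clec2d of 0.19 and Clec10a of -0.18. In all, 5 of the 15 tested C-type lectin domain genes rose, 3 fell and 7 did not pass, with a median of 0.23. The number that rose was 8 without control replicate 3, where Clec4a1, Clec4a3 and Clec2d also passed. All 3 that fell were among the 4 tested genes of a list headed stroma, matrix or endothelium. That list was written with earlier results of these data known, and its heading does not describe Clec16a. Clec11a (osteolectin, a secreted growth factor of the bone marrow stroma that promotes bone formation; chromosome 7, 44303766 to 44306959) had 66.5, 68.7 and 71.3 CPM with verapamil, against 126, 126 and 143 CPM in control. Every verapamil library was below every control library, with a log2 fold change of -0.94 ± 0.07 (SE) and an adjusted p of 1.37e-04. The part of the lower osteoblast marker levels in this fall was not tested. Clec14a, an endothelial glycoprotein, fell by 0.39 on the log2 scale (adjusted p = 0.0328), and Clec16a, a regulator of endosomal and mitochondrial turnover, by 0.23 (adjusted p = 0.0325). Both calls were fragile: the adjusted p reached 0.123 for Clec14a and 0.116 for Clec16a when 1 library was left out, and each call was lost without control replicate 1 or any 1 verapamil replicate, that of Clec14a also without control replicate 3. The other gene of these 4, Clec1a, did not pass (0.31). Endothelial markers summed to 55.2 to 56.1 CPM with verapamil and 63.8 to 70.1 CPM in control, with 4 of 9 lower and 1 higher; their part in the Clec14a value was not tested.

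**Figure D2:**
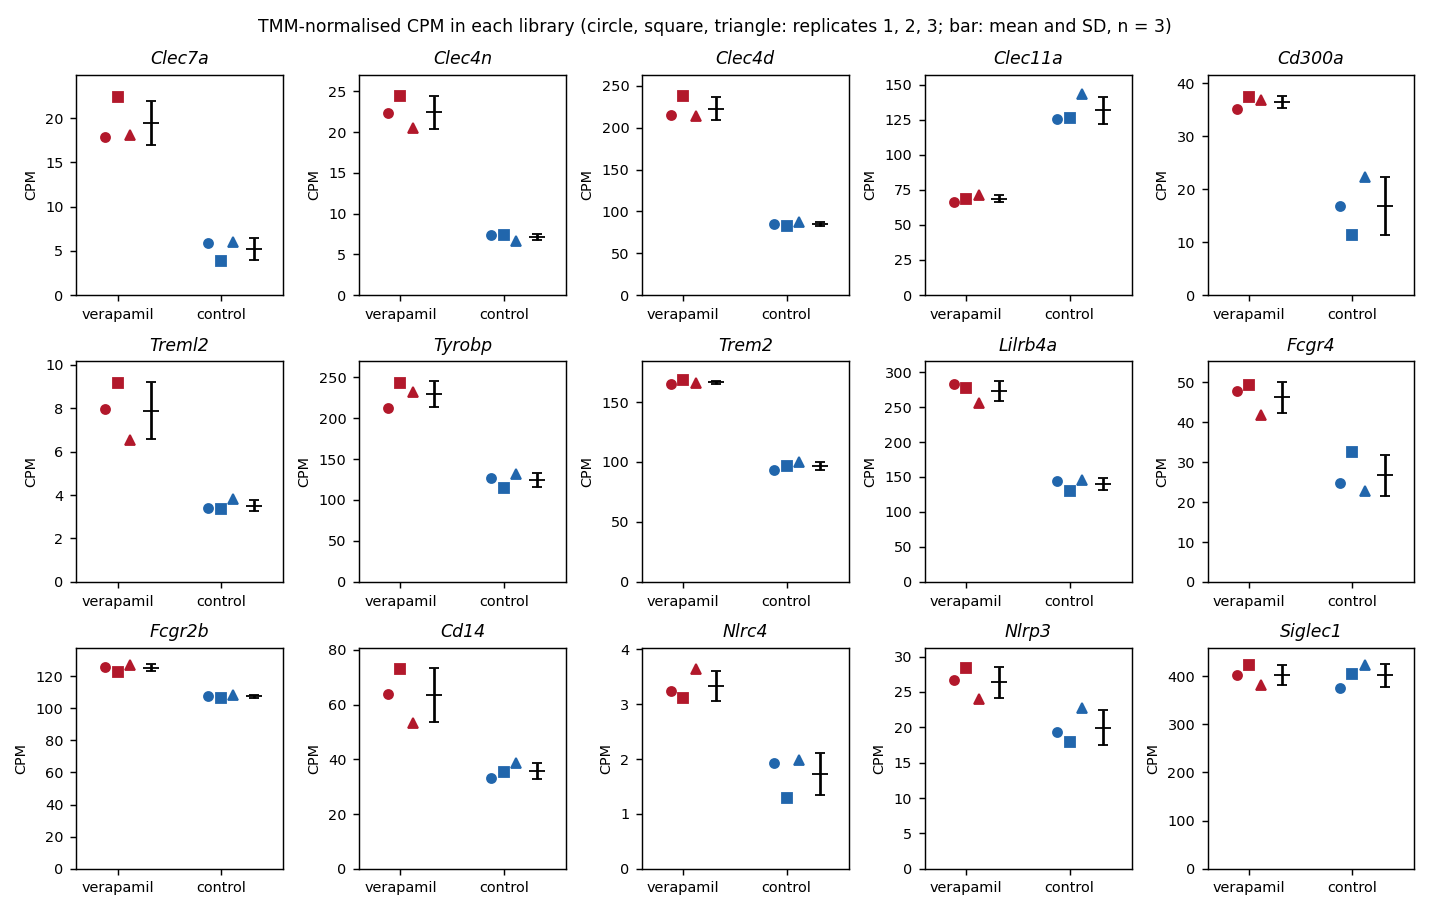
TMM-normalised CPM (y axis, from 0) of 15 members in each library, verapamil in red left of control in blue, with the mean and SD of 3 libraries as a black bar. Clec7a, Clec4n, Clec4d and Treml2 separate widely, Clec11a lies lower with verapamil, and the 6 values of Siglec1 overlap around 400.

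Promoters were read for letters that the myeloid factor PU.1 is known to bind, because these families are mostly expressed by myeloid cells. The windows ran from 250 bases before to 50 bases after the RefSeq start, on GRCm38.p6, and were searched for GAGGAA on either strand, that is GAGGAA or TTCCTC in the printed strand. Of 65 promoters listed for 55 of the 68 tested members, 39 (60.0%) held at least 1 match, against 9289 of the 32851 promoters of all genes (28.3%). A match is a description of letters and not a bound site. The promoters of the 2 lectins Clec7a and Clec4d, of Trem2, and of Clec11a, the member with the largest fall among those that passed, are given 5′ to 3′ on the strand of the gene, with matches in capitals. They lie at chr6:129472730-129473029 (minus strand, 1 of 2 listed promoters), chr6:123261857-123262156 (plus strand), chr17:48346151-48346450 (plus strand) and chr7:44306910-44307209 (minus strand). The 2 listed for Clec7a were ranked by number of matches and the first was printed, so that choice favoured a match.
Clec7a: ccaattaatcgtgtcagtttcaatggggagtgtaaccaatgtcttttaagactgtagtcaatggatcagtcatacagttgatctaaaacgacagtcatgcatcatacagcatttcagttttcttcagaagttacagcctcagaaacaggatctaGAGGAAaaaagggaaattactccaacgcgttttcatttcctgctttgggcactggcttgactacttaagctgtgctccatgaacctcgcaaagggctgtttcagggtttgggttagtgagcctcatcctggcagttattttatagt
Clec4d: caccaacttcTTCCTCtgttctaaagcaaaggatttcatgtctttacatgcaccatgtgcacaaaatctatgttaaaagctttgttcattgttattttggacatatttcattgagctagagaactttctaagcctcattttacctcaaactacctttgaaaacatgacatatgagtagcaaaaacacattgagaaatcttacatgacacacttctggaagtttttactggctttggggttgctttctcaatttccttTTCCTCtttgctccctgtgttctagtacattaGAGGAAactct
Trem2: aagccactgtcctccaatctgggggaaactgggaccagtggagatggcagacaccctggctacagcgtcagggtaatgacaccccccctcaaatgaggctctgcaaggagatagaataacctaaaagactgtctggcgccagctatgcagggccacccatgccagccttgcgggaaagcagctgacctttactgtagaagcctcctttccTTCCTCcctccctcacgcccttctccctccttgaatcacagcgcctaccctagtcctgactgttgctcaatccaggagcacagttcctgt
Clec11a: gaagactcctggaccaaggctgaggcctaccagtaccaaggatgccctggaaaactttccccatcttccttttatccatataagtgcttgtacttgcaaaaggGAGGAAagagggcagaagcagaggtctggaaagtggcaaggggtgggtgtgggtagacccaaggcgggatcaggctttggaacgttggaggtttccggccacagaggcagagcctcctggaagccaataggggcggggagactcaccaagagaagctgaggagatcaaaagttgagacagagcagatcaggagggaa
Clec4d held 3 matches and the others 1 each. Matches thus stood in the printed promoters of 3 genes that rose and in that of Clec11a, which fell. By gene, 18 of the 25 members with an entry that rose (72.0%), 3 of the 4 that fell (75.0%) and 16 of the 26 that did not pass (61.5%) held a match, and 8 of 27 under the filter (29.6%). Over all genes tested, 3253 of the 10604 with an entry (30.7%) held a match. Related neighbours may not be independent here: Pirb, Pira1, Pira2 and Lilra6 held 3 matches each. Entries covered 26 of the 33 members that did not pass, too few for a comparison by call, so none is drawn.

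Both ITAM adaptors and 2 of the 3 tested Trem genes rose. Tyrobp (DAP12; chromosome 7, 30413782 to 30417582) had 212, 243 and 232 CPM with verapamil, against 127, 115 and 132 CPM in control. All verapamil libraries were higher, with a log2 fold change of 0.88 ± 0.08 (SE) and an adjusted p of 2.69e-04. Trem2 (a lipid and lipoprotein receptor that signals through Tyrobp; chromosome 17, 48346401 to 48352276) had 165, 168 and 166 CPM with verapamil, against 93.2, 96.9 and 100.2 CPM in control. The spread within each group was small beside the gap, and the log2 fold change was 0.78 ± 0.05 (SE), with an adjusted p of 1.29e-04. Of the 5 tested osteoclast markers, 1 rose, 3 fell and 1 did not pass. Treml2, a further member of the Trem gene cluster, had 7.97, 9.16 and 6.56 CPM with verapamil and 3.38, 3.37 and 3.81 CPM in control. Its groups lay apart, with a log2 fold change of 1.16 ± 0.15 (SE) and an adjusted p of 0.00124. Trem1, an amplifier of inflammatory signals in myeloid cells, had a log2 fold change of 0.80 and did not pass (adjusted p = 0.0589), but passed without control replicate 2, without verapamil replicate 3, with library totals alone and with the DESeq2 test, over a range of adjusted p from 0.00794 to 0.190 with 1 library left out. Fcer1g (the common γ chain of Fc receptors; chromosome 1, 171229572 to 171234349) had 221, 209 and 198 CPM with verapamil, against 132, 131 and 145 CPM in control. Its values did not overlap, and it rose by 0.62 ± 0.07 (SE) with an adjusted p of 5.58e-04.

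Among the Cd300 receptors, which bind phospholipids of dying cells and other lipids, 5 of 10 tested members rose and 5 did not pass, with a median of 0.25. Cd300lb, an activating receptor, had 49.5, 48.0 and 42.0 CPM with verapamil and 21.7, 15.4 and 25.8 CPM in control. The groups did not overlap, with a log2 fold change of 1.14 ± 0.17 (SE) and an adjusted p of 0.00311. Cd300a, an inhibitory receptor for phosphatidylserine and phosphatidylethanolamine, had 35.2, 37.4 and 36.8 CPM with verapamil, against 16.8, 11.4 and 22.3 CPM in control. The control libraries were spread over a wide range, all of it below the verapamil libraries, and Cd300a rose by 1.11 ± 0.21 (SE) (adjusted p = 0.00838). Cd300lf, an inhibitory receptor that also serves as the entry receptor of murine norovirus, had 41.6, 40.3 and 38 CPM with verapamil and 23.9, 26.8 and 20.2 CPM in control. It lay higher in all verapamil libraries and rose by 0.76 ± 0.10 (SE), with an adjusted p of 0.00124. Cd300c2 rose by 0.53 (adjusted p = 0.00273) and Cd300ld by 0.39 (adjusted p = 0.0134). The call on Cd300ld was lost without control replicate 1 or verapamil replicate 2, where its adjusted p reached 0.0657. Log2 fold changes of the members that did not pass were 0.10 for Cd300lg, 0.07 for Cd300e, -0.18 for Cd300ld3, -0.21 for Cd300ld5 and -0.91 for Cd300ld4. The last 3 are uncertain, since 82.1% of the 50-base windows of the Cd300ld3 transcript, 93.8% of those of Cd300ld4 and all of those of Cd300ld5 occur in other genes, mainly in one another.

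The paired immunoglobulin-like receptors, which bind MHC class I and other surface ligands, had 4 of 8 tested members higher and 4 not past the test, with a median of 0.44. Lilrb4a (gp49B, an inhibitory receptor) had 283, 278 and 256 CPM with verapamil, against 144, 129 and 146 CPM in control. Lilr4b (gp49A), its neighbour on chromosome 10, had 153, 142 and 140.1 CPM with verapamil, against 77.5, 69.4 and 85.3 CPM in control. In both, every verapamil library was higher, with log2 fold changes of 0.96 ± 0.07 (SE) for Lilrb4a (adjusted p = 1.37e-04) and 0.90 ± 0.08 (SE) for Lilr4b (adjusted p = 3.12e-04). The split between them is uncertain, because all 50-base windows of the Lilrb4a transcript recur in Lilr4b or in Gm49339, which overlaps it on the same strand, and 24.3% of those of Lilr4b do so. Lilra5 had 6.43, 6.81 and 5.93 CPM with verapamil and 3.43, 2.88 and 4.13 CPM in control. It was higher in all 3 verapamil libraries, by 0.87 ± 0.15 (SE) (adjusted p = 0.00434). Pirb, an inhibitory receptor for MHC class I, had 207, 203 and 199.9 CPM with verapamil and 137, 145 and 141 CPM in control. Its groups were tight and lay apart, and it rose by 0.53 ± 0.05 (SE) with an adjusted p of 4.13e-04, while 37.3% of its windows occur in other genes, Pira2 among them. Lilra6 (0.36), Pira1 (0.26), Pira2 (0.25) and Pilra (-0.77) did not pass.

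Of the 6 tested Fc receptor genes, 4 rose, 1 fell and 1 did not pass, with a median of 0.39, and the 4 that rose, Fcgr2b, Fcgr3, Fcgr4 and Fcer1g, form a cluster on chromosome 1. Fcgr4, an activating receptor for IgG2a and IgG2b, had 47.7, 49.4 and 42.0 CPM with verapamil, against 24.8, 32.5 and 22.9 CPM in control. The groups lay apart, with a log2 fold change of 0.80 ± 0.13 (SE) and an adjusted p of 0.00380. Fcgr3, the low-affinity activating receptor, had 408, 442 and 392 CPM with verapamil and 273, 278 and 289 CPM in control. It rose in all verapamil libraries, by 0.56 ± 0.07 (SE) (adjusted p = 7.94e-04). Fcgr2b, the inhibitory Fcγ receptor, had 126, 123 and 127 CPM with verapamil, against 107, 106 and 108 CPM in control. The groups did not overlap, but the rise was small, at 0.22 ± 0.05 (SE) with an adjusted p of 0.0102, and it was lost without verapamil replicate 1 or 3 (adjusted p up to 0.0584). Of the 50-base windows, 12.8% of those of Fcgr3 occur in Fcgr2b, and 11.4% of those of Fcgr2b occur in other genes, Fcgr3 among them. Per library, the ratio of Fcgr4 to Fcgr2b was 0.380, 0.402 and 0.330 with verapamil and 0.231, 0.306 and 0.211 in control, and that of Fcgr3 to Fcgr2b was 3.24, 3.60 and 3.08 with verapamil and 2.55, 2.61 and 2.67 in control. Neither ratio overlapped between groups. The exact two-sided permutation p was 0.1 for each, and 0.138 after adjustment over the 11 pairs. Fcgr1, the high-affinity receptor, had a log2 fold change of -0.02 and did not pass (adjusted p = 0.949). Fcgrt, the neonatal Fc receptor that recycles IgG and albumin and is not restricted to myeloid cells, had 173, 189.9 and 185 CPM with verapamil, against 205, 235 and 219.7 CPM in control. It lay lower in every verapamil library, at -0.27 ± 0.07 (SE) on the log2 scale, and the adjusted p was 0.0201. That call was lost without verapamil replicate 1 or 3 (adjusted p up to 0.0898) and with library totals alone.

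Rises among the Toll-like receptors lay mostly in those of the endosome. Of the 5 tested receptors of the endosome, which detect nucleic acids, 4 rose, with a median log2 fold change of 0.74; of the 5 of the cell surface, 1 rose, with a median of 0.21. The difference between these sets was not tested as such. Tlr8 had 120.3, 126 and 109.5 CPM with verapamil, against 72.0, 58.8 and 77.9 CPM in control. Tlr7, the receptor for single-stranded RNA and its neighbour on the X chromosome, had 279, 314 and 254 CPM with verapamil, against 169, 134 and 199 CPM in control. In both genes every verapamil library was higher, with log2 fold changes of 0.77 ± 0.10 (SE) for Tlr8 (adjusted p = 0.00160) and 0.75 ± 0.15 (SE) for Tlr7 (adjusted p = 0.00865). Tlr13, which in mice detects bacterial ribosomal RNA, had 272, 292 and 255 CPM with verapamil, against 171, 155 and 183 CPM in control. It too was higher in all verapamil libraries, by 0.69 ± 0.08 (SE) with an adjusted p of 7.38e-04. Tlr9, the receptor for unmethylated CpG DNA, had 3.67, 2.80 and 3.10 CPM with verapamil and 1.6, 2.08 and 2.02 CPM in control. It rose by 0.74 ± 0.19 (SE) (adjusted p = 0.0184), a call lost without control replicate 1 or verapamil replicate 1 or 3 (adjusted p up to 0.0787). Tlr3, the receptor for double-stranded RNA, had a log2 fold change of 0.29 and did not pass (adjusted p = 0.0541).

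Of the surface receptors, Tlr2, which senses lipoproteins, had 34.7, 36.1 and 34.7 CPM with verapamil and 30.8, 29.9 and 30.3 CPM in control. Its groups were tight and did not overlap, and it rose by 0.21 ± 0.06 (SE) (adjusted p = 0.0240). This was the 1 surface call, and it was lost without control replicate 1 or any 1 verapamil replicate (adjusted p up to 0.108). Tlr4, the lipopolysaccharide receptor, had 135, 142 and 127 CPM with verapamil and 123, 95.9 and 127 CPM in control. The groups were apart by less than 1 CPM, between verapamil replicate 3 and control replicate 3, with control replicate 2 lowest, and the log2 fold change of 0.23 ± 0.10 (SE) did not pass (adjusted p = 0.132). Tlr6 (0.25), Tlr1 (0.14) and Tlr5 (-0.09) did not pass either, and 15.3% of the windows of Tlr1 and 12.6% of those of Tlr6 occur in other genes, each in the other among them. The ratio of Tlr7 to Tlr4 was 2.06, 2.20 and 2.0 in verapamil libraries and 1.37, 1.40 and 1.57 in control libraries, a log2 difference of 0.53. It did not overlap, nor did the ratios of Tlr8 and Tlr13 to Tlr4, with an exact two-sided permutation p of 0.1 each (0.138 adjusted over the 11 pairs), while that of Tlr9 to Tlr4 did overlap. Cd14, the co-receptor that hands lipopolysaccharide to Tlr4, had 64.0, 72.9 and 53.2 CPM with verapamil, against 33.1, 35.4 and 38.7 CPM in control. It was higher in every verapamil library, by 0.83 ± 0.12 (SE) with an adjusted p of 0.00194. Myd88, the adaptor of nearly all Toll-like receptors, had 51.1, 59.7 and 53.4 CPM with verapamil and 51.2, 50.7 and 54.0 CPM in control. Its values overlapped, and its log2 fold change was 0.07 ± 0.07 (SE) (adjusted p = 0.463).

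**Figure D3:**
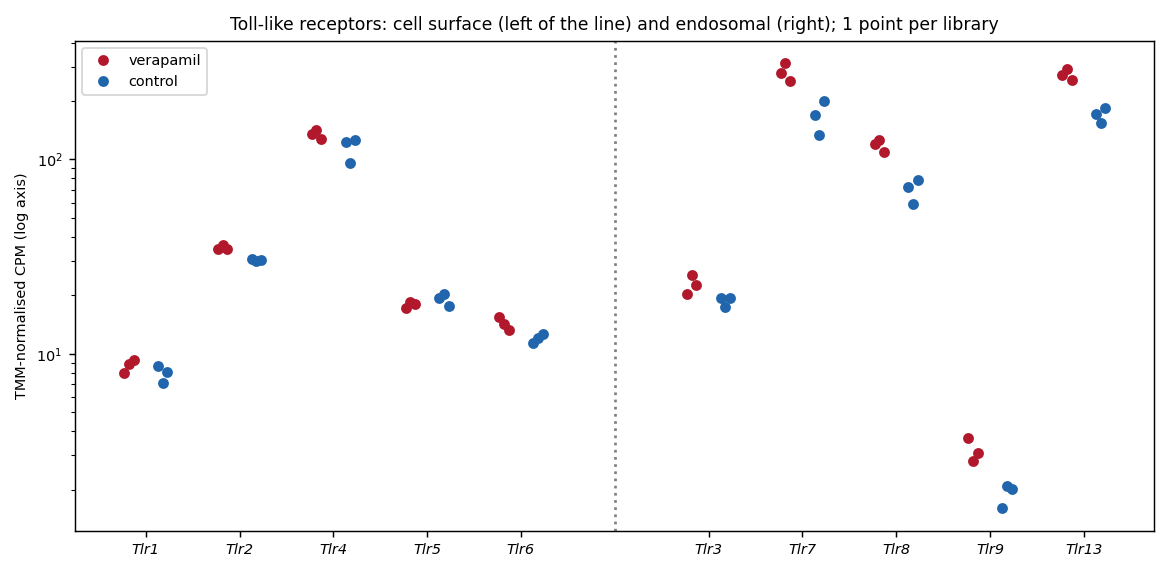
TMM-normalised CPM (log axis) of 10 Toll-like receptor genes, 1 point per library, verapamil in red and control in blue, with the surface receptors to the left of the dotted line and the endosomal ones to the right. The verapamil points of Tlr7, Tlr8, Tlr9 and Tlr13 lie above their control points, those of Tlr4 only narrowly so, while those of Tlr1 and Tlr5 overlap.

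Of the 10 tested NLR sensors, 4 rose and 6 did not pass, with a median of 0.49. Nlrc4, which forms an inflammasome on detection of bacterial flagellin and secretion systems, had 3.24, 3.11 and 3.64 CPM with verapamil and 1.93, 1.28 and 1.98 CPM in control. All verapamil libraries were higher, with a log2 fold change of 0.94 ± 0.20 (SE) and an adjusted p of 0.00939. Nlrc3, a regulator that dampens innate signalling, had 15.2, 16.8 and 17.4 CPM with verapamil and 11.4, 8.28 and 11.1 CPM in control. It did not overlap either and rose by 0.68 ± 0.13 (SE) (adjusted p = 0.00592). Nlrp1a, an inflammasome sensor, had 3.67, 4.24 and 3.14 CPM with verapamil and 2.40, 1.76 and 2.89 CPM in control. Its rise of 0.64 ± 0.21 (SE) was at the edge of the threshold (adjusted p = 0.0487) and was lost in 5 of the 6 fits that left out 1 library, each but the one without control replicate 3 (adjusted p up to 0.177). Nlrp3, the sensor of the best-known inflammasome, had 26.7, 28.4 and 24.0 CPM with verapamil and 19.3, 17.9 and 22.7 CPM in control. The 3 verapamil libraries lay above the 3 control libraries, the nearest pair close together, and the log2 fold change was 0.40 ± 0.10 (SE) (adjusted p = 0.0207). This call was lost without control replicate 1, verapamil replicate 1 or verapamil replicate 2 (adjusted p up to 0.0923), so that 2 of the 10 sensors remained higher in each of those 3 fits. Nod2, a sensor of muramyl dipeptide, had 1.38, 1.80 and 0.854 CPM with verapamil and 0.658, 0.641 and 1.38 CPM in control, close to the filter. Nod1, which senses a related peptidoglycan fragment, had 23.3, 22.7 and 20.2 CPM with verapamil and 18.8, 18.2 and 20.6 CPM in control. Neither passed, with log2 fold changes of 0.57 for Nod2 (adjusted p = 0.295) and 0.20 for Nod1 (adjusted p = 0.110), nor did Nlrp10 (1.10), Nlrp1b (0.26), Nlrx1 (-0.04) and Nlrc5 (-0.24).

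None of the 3 tested Siglecs, receptors for sialic acids, passed edgeR's test: 0 had an unadjusted p under 0.05, and 0 passed with DESeq2 or limma-voom. Siglec1 (CD169, a macrophage adhesion receptor) had 402, 422 and 382 CPM with verapamil and 376, 404 and 424 CPM in control. The 6 values were interleaved, and the log2 fold change was 0.00 ± 0.07 (SE) (adjusted p = 0.985). Siglece had a log2 fold change of 0.23 and Siglecg of 0.29.

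Grouped by signalling type, a first list held ITAM adaptors and receptors that signal through an ITAM or its shorter form, the hemITAM. Of its 17 tested genes, 13 rose and 4 did not pass, with a median log2 fold change of 0.67. Of the 13 tested genes listed as inhibitory receptors, 6 rose and 7 did not pass, with a median of 0.27. These lists were written from family names, and the motifs themselves were not looked up in protein sequence. Lilr4b, which rose, and some of the Clec4a genes in the inhibitory list may lack an ITIM. The count and median of that list are uncertain for this reason. The difference between the lists was not tested. The genes that rose included opposed partners, such as the activating Fcgr3 and Fcgr4 with the inhibitory Fcgr2b, and Cd300lb with Cd300a and Cd300lf.

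Genes downstream of the receptors, from lists that hold no member, are given beside them. Of the 24 tested proteins that relay ITAM and ITIM signals, 19 rose, 1 fell and 4 did not pass, with a median of 0.46. Hcst (DAP10, an adaptor partner of Tyrobp) rose by 0.77 (adjusted p = 0.0294), Btk, a Tec-family kinase, by 0.73 (adjusted p = 0.00176) and Lat2, a scaffold of ITAM signalling, by 0.69 (adjusted p = 4.71e-04). The call on Hcst was lost in 5 of the 6 fits that left out 1 library, each but the one without control replicate 2 (adjusted p up to 0.102). Syk, the kinase that docks on ITAMs, rose by 0.46 (adjusted p = 0.00105). Ptpn11, a phosphatase expressed in nearly all cells, fell by 0.30 on the log2 scale. Of 12 tested inflammasome components and products, 8 rose and 4 did not pass, with a median of 0.42. They included the adaptor Pycard (0.92, adjusted p = 4.59e-04), the protease Casp1 (0.71, adjusted p = 0.00264) and the DNA sensor Aim2 (0.61, adjusted p = 0.00853), and the count was 5 without verapamil replicate 2.

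The adaptors, accessory proteins and kinases of Toll-like receptors had a median change near 0. Of 22 tested, 7 rose, 3 fell and 12 did not pass, with a median of 0.04. The largest rises were those of Slc15a3, an endolysosomal transporter of peptidoglycan fragments (0.74, adjusted p = 0.010), Cd180, a surface relative of Tlr4 (0.70, adjusted p = 0.00203), and Pik3ap1, an adaptor to phosphoinositide 3-kinase (0.62, adjusted p = 6.01e-04). The chaperone Hsp90b1 and the broadly expressed genes Tab2 and Map3k7 fell, by 0.60, 0.28 and 0.23 on the log2 scale. The 7 rises became 4 without verapamil replicate 2, and the 3 falls became 0 without verapamil replicate 1 and 1 without verapamil replicate 2 or 3. Of 10 tested lectin receptors whose symbols lie outside the rule, 4 rose, 3 fell and 3 did not pass, with a median of 0.22. Cd22, a Siglec, rose by 0.83 (adjusted p = 0.00175), and Cd93, a receptor with a C-type lectin domain, by 0.81 (adjusted p = 0.00120), while Ly75 (DEC-205, an endocytic receptor) fell by 0.55 on the log2 scale (adjusted p = 0.00197). Without control replicate 1 or any 1 verapamil replicate the 4 rises became 2. Of 9 tested cytosolic sensors of nucleic acids, 0 were called by edgeR, 1 had an unadjusted p under 0.05, and 0 were called by DESeq2 or limma-voom. Trim25 and Ifi204, the 2 with the highest mean CPM, had log2 fold changes of 0.18 and -0.14, and the median was 0.18.

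**Figure D4:**
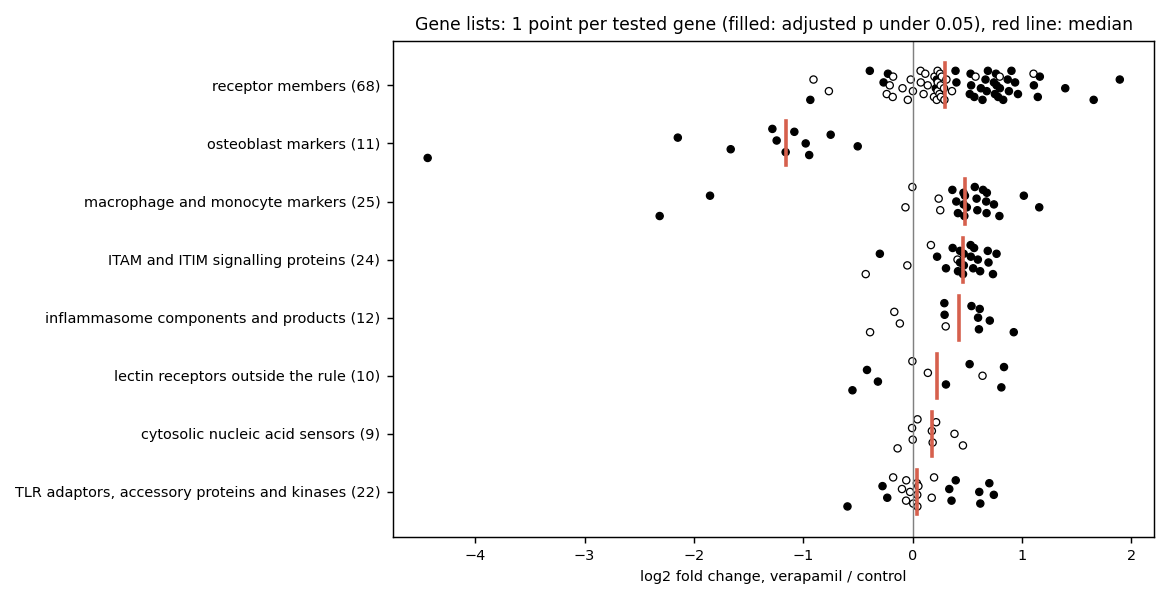
Log2 fold changes of verapamil over control (x axis) for the 68 tested members and for genes of 7 lists that hold no member, 1 point per gene, filled where the adjusted p was under 0.05, with the median in red. The members' median lies at 0.30, that of ITAM and ITIM signalling at 0.46, that of Toll-like receptor adaptors at 0.04, and all 11 osteoblast markers lie left of 0.

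Because macrophage marker RNA was itself higher with verapamil, members were also read per unit of that RNA, as CPM per 1000 CPM of the 25 summed markers, of which Lyz2 supplied a mean of 41.5%. The list holds no member, and this is a description with no test. On this scale 10 members did not overlap and were higher with verapamil, 39 did not overlap and were lower, and 19 overlapped, with a median log2 ratio of -0.39. The marker sum itself had a log2 ratio of 0.72, which lowers every gene alike on this scale: over all 13366 genes tested, 1.08% did not overlap and were higher, 87% did not overlap and were lower, and the median log2 ratio was -0.72. A lower value on this scale is therefore no result about the members. The 10 were Clec7a, Clec4n, Clec4d, Treml2, Cd300lb, Cd300a, Lilrb4a, Lilr4b, Lilra5 and Tyrobp. Clec7a stood at 0.739, 0.864 and 0.786 per 1000 marker CPM with verapamil, against 0.396, 0.284 and 0.368 in control. Clec4n stood at 0.923, 0.943 and 0.885 with verapamil and 0.498, 0.549 and 0.410 in control. Both kept a clear gap on this scale. Trem2, at 6.80, 6.49 and 7.19 with verapamil and 6.29, 7.27 and 6.17 in control, and Tlr7, at 11.5, 12.1 and 11 with verapamil and 11.4, 10.1 and 12.3 in control, overlapped. Tlr4 stood at 5.59, 5.50 and 5.50 with verapamil and 8.31, 7.19 and 7.80 in control, and Siglec1 at 16.6, 16.3 and 16.5 with verapamil and 25.4, 30.3 and 26.1 in control. These 2 were lower per unit of summed marker RNA in every verapamil library.

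The count depends on what stands for macrophage RNA. Leaving Lyz2, the lysozyme gene of myeloid cells, out of the sum gave 16 members higher, 27 lower and 25 overlapping, with a median of -0.20. Over all genes tested, 2.41% were then higher and 77.1% lower without overlap, and the measure had a log2 ratio of 0.51. The geometric mean of the 25 markers, with a log2 ratio of 0.31, gave 25 members higher, 14 lower and 29 overlapping, with a median of 0.01, against 6.13% higher and 56.6% lower over all genes tested. The 10 members named above were higher, and 14 members, Clec11a, Fcgrt, Siglec1 and Myd88 among them, were lower relative to each of the 3 measures. Trem2 overlapped on the full sum only. It was higher without overlap when Lyz2 was left out (log2 ratio 0.27) and with the geometric mean (0.46). Tlr7 overlapped without Lyz2 as well (0.24) and was higher without overlap with the geometric mean (0.44). Tlr4 was lower without Lyz2 too but overlapped with the geometric mean, and Fcgr1 overlapped with both. The measure without Lyz2 and the geometric mean were chosen after the data were seen.

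**Figure D5:**
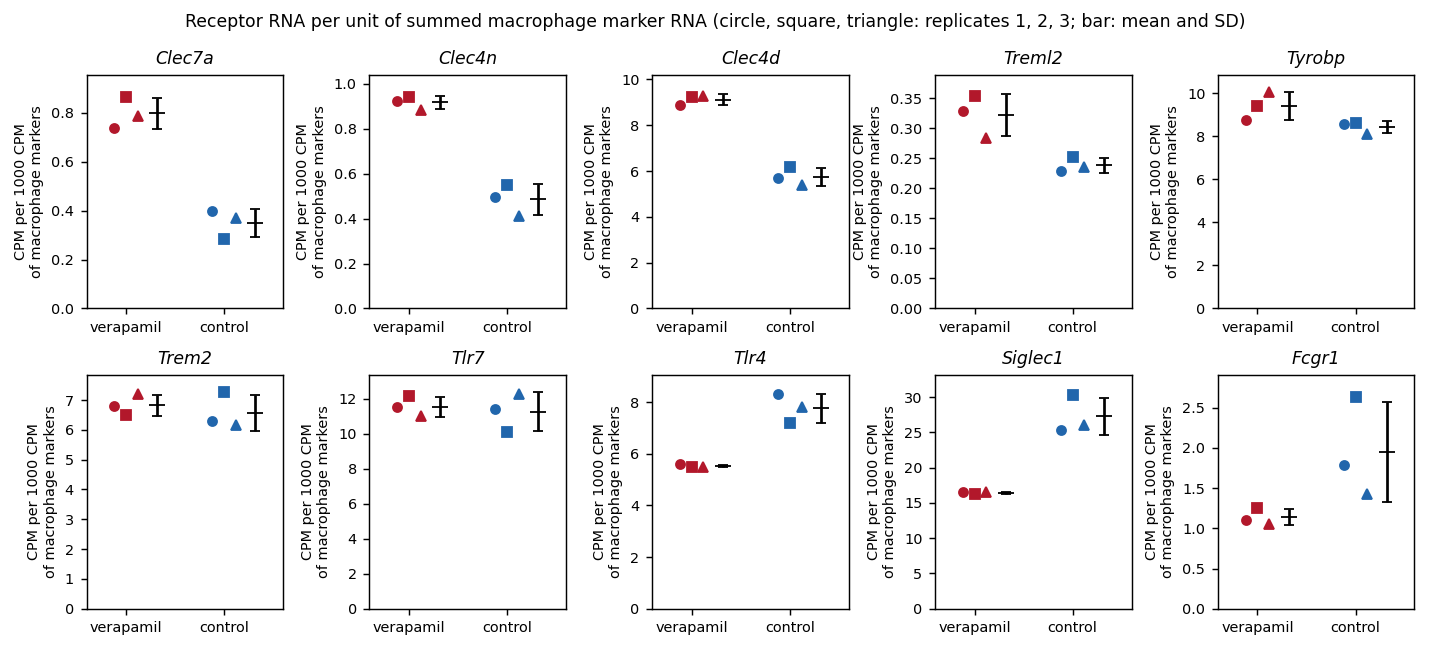
CPM of 10 members per 1000 CPM of summed macrophage and monocyte markers (y axis, from 0) in each library, verapamil in red left of control in blue, with the mean and SD as a black bar. Clec7a, Clec4n, Clec4d, Treml2 and Tyrobp lie higher with verapamil, Trem2 and Tlr7 overlap, and Tlr4, Siglec1 and Fcgr1 lie lower.

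Levels of different genes are comparable only per length, and were divided by the longest GENCODE transcript, available for 67 of the 68 tested members. Tyrobp was the most abundant with verapamil, at 384 CPM per kb. In control it had 208 CPM per kb, level with Fcgr3. Fcgr3 had 307 CPM per kb with verapamil and 208 in control, and Fcer1g had 307 with verapamil and 199 in control. The levels of Fcgr3 and Fcer1g were nearly equal in each group. Lilrb4a followed with 197 CPM per kb with verapamil and 101 in control, then Clec4d with 168 with verapamil and 64.0 in control, and Trem2 with 153 with verapamil and 88.9 in control. Fcgrt ranked 7 with verapamil, at 103 CPM per kb, and 4 in control, at 124 CPM per kb, and Clec11a was in rank 22 with verapamil and rank 10 in control. Clec7a ranked low among the members, at 8.56 CPM per kb with verapamil and 2.29 in control (rank 35 with verapamil and rank 49 in control).

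Neighbours in the genome did not all move alike. In the Clec4 cluster on chromosome 6 (GRCm38, 122921848 to 123289871), Clec4n, Clec4d and Clec4e rose, while Clec4a1, Clec4a2 and Clec4a3 did not pass, over a range of log2 fold changes from 0.12 to 1.65. In the cluster that follows on the same chromosome (129180615 to 129472785), Clec7a rose and Clec2d, Clec12a and Clec1a did not pass. The ratio of Clec7a to Clec12a was 1.58, 1.69 and 1.39 with verapamil and 0.539, 0.332 and 0.605 in control. It did not overlap between groups (exact two-sided permutation p = 0.1, adjusted 0.138). In the Cd300 cluster on chromosome 11, 5 of 9 tested genes rose, over a range from -0.91 to 1.14, and in the Trem cluster on chromosome 17, 2 of 3 rose, over a range from 0.78 to 1.16. By contrast all 4 Fc receptor genes on chromosome 1 (170960558 to 171234349) rose, between 0.22 and 0.80, as did both Lilr genes on chromosome 10 and the adjacent Tlr7 and Tlr8. A cluster ends here where the next tested member is more than 1 Mb away.

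The other 33 members did not reach the filter, which stood near 0.462 CPM, and none had more than 15.97 counts in any library. They were Clec1b, Clec2e, Clec2g, Clec2h, Clec2i, Clec2l, Clec3b, Clec4a4, Clec4b1, Clec9a, Clec12b and Clec18a of the C-type lectins; Cd300c and Cd300ld2; the IgE receptor gene Fcer2a; Nlrp2, Nlrp4a, Nlrp4f, Nlrp4g, Nlrp5, Nlrp6, Nlrp9b and Nlrp12; Pilrb1 and Pilrb2; Siglec15, Siglecf and Siglecl1; Tlr11 and Tlr12; and Trem3, Treml1 and Treml4. Of them, 6 had a count in every library. Several mark particular cells, such as Clec9a of dendritic cells and Siglecf of eosinophils, and their levels were not detectable above a few counts at this depth. Of the 68 tested members, 2 had fewer than 3 control libraries at the filter and 3 had fewer than 3 verapamil libraries at it.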

How the data were processed

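RNA-seq of total RNA from mouse osteoblast cultures (SMARTER mRNA-seq kit) gave 3 verapamil and 3 control libraries. The authors deposited 1 estimated count per gene and library, a read count per the file headers, not scaled to depth or length; 67.7% of the values were not whole. The build is GRCm38 (mm10), per the submitters' processing notes. Not given in the sources used here were the aligner, the counter, the annotation and the strand; antisense or overlapping reads therefore cannot be told apart (over 10% of exon bases for 4 tested members: Lilrb4a, Myd88, Nlrx1, Pilra).

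Counts were rounded and filtered with filterByExpr (minimum count 10, minimum total 15), which left 13366 of 17491 genes. They were scaled with TMM factors and tested with edgeR 4.0.16 (R 4.3.3; robust quasi-likelihood fit, Benjamini-Hochberg over all genes tested). The SE was taken from the F statistic, as the size of the log2 fold change divided by the root of F. Members, lists and tests were chosen with earlier results of these data known. Per-library values were given for the 3 largest changes past the test in each family, and for Tlr2, Tlr4, Cd14, Myd88, Clec7a, Clec11a, Fcer1g, Fcgr2b, Trem2, Tyrobp, Nlrp3, Nod1 and Nod2; Tlr13, Tlr9, Pirb, Fcgrt and Siglec1 were added after their values were seen. Coordinates and promoters came from RefSeq GRCm38.p6, transcript lengths and shared 50-base windows from GENCODE M21 transcripts. Over 10% of windows were shared in 13 tested members. Protein sequences were not used here.

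Replicates differed by more than sampling noise (chi-square per degree of freedom 3.49 to 6.00 between verapamil libraries and 12.1 to 47.8 between control libraries). Alternatives were other scaling factors, other filters, the tests of DESeq2 1.42.0 and limma-voom (limma 3.58.1), thresholds of 0.01 and 0.10, the replicate block and each library left out. Counts without rounding and 2 other macrophage denominators were added after the data were seen.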

Additional observations from a re-analysis of the deposited data

How the results depend on the processing

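The 31 members higher with verapamil and the 4 lower became 31 and 4 with DESeq2 size factors, 30 and 3 with the DESeq2 test and 30 and 4 with limma-voom. Leaving out 1 library gave 26 to 34 higher, 1 to 7 lower, 2236 to 5042 of all genes called (4235 with all libraries) and 29 to 49 of the listed pathway genes called (45 with all libraries). The members lower numbered 1 with library totals alone and 1 at a threshold of 0.01, where 1969 of all genes and 28 pathway genes were called. Same-numbered libraries did not deviate together (correlations of 0.01, -0.17 and -0.13), so the replicate numbers were not taken as pairs; with the replicate block 27 members were higher, 2 lower and 2953 of all genes called, and Trem1 passed. Members higher per unit of macrophage marker RNA numbered 16 without Lyz2 and 25 with the geometric mean, against 10. The causes of these changes were not tested.

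Signs changed only in members that passed under neither setting. The log2 fold change of Siglec1 turned to -0.00389 with DESeq2 size factors, -0.00389 with the DESeq2 test and -3.99e-05 with the 5 CPM filter, that of Fcgr1 to 0.0675 with library totals alone and 3.07e-04 with limma-voom, and that of Nlrx1 to 0.0376 with library totals alone. With 1 library left out, log2 fold changes ran from -0.0432 to 0.0402 for Siglec1, -0.15 to 0.16 for Fcgr1, -0.12 to 0.0461 for Nlrx1, -0.12 to 0.32 for Cd300e, -0.0210 to 0.63 for Clec1a, -0.35 to 0.0153 for Clec10a, -0.38 to 0.00652 for Cd300ld3, -0.42 to 0.13 for Cd300ld5 and -0.0411 to 0.49 for Pira1. Low counts limit Nod2, Nlrp10, Clec1a, Pilra, Cd300ld4 and the 33 members under the filter, among others.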
